A study of Saccharomyces cerevisiae with 23 samples.

Results

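The genes described here are those nearest the ends of the yeast chromosomes, apart from the families named below. On each of the 32 chromosome arms, the 10 array probes with the highest gene number in the systematic name were taken, since those numbers count outwards from the centromere, and rank 1 is the outermost gene. From the resulting 320 probes, 66 were set aside because they belong to the COS, YRF1, PAU, FLO, HXT, MAL, IMA, PHO, ARN, ENB or FRE families or are YHL050C, YML133C or YIL177C. The other 254 genes, of 6256 genes on the array, are the members. Of them, 133 have a standard name in the RefSeq annotation, 78 are listed there under the systematic name alone and 43 have no match.

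Genes near yeast telomeres lie in chromatin that is folded by the Sir proteins, which spread inwards from the telomere and deacetylate histones, and these regions hold many genes that are used only on particular carbon sources, metals or stresses. Tup1 and Cyc8 form a corepressor complex that DNA-bound factors bring to promoters, where it recruits histone deacetylases and holds genes off until a signal arrives. Both proteins carry the small modifier SUMO, and the modification changes during hyperosmotic stress. The question behind the arrays was which transcripts depend on the sumoylation of each protein.

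RNA was taken from Tup1K270R cells, in which a single acceptor lysine of Tup1 is replaced (K270R), from Cyc8-4KtoR cells, in which 4 lysines of Cyc8 are replaced (K735R, K736R, K738R and K748R), from Tup1K270R/Cyc8-4KtoR double mutant cells and from wild-type cells. Every strain, wild type included, is a BY4741 derivative (met15Δ0 his3Δ1 ura3Δ0 leu2Δ0) with a 6His-FLAG-tagged SMT3, the SUMO gene, marked by HIS3MX6, and with TUP1 and CYC8 deleted and put back as the wild-type or mutant allele beside URA3 and LEU2. Cultures grown at 30 °C were brought to 1.2 M sorbitol, and cells were taken before this (0 min) and 30 and 60 min later. Replicates A and B are isolates from separate transformations, and each isolate was followed through all 3 times, so a pair of isolates stands for each strain. In RNA from whole cultures, fewer cells that express a gene and less of its RNA per cell cannot be told apart.

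Each two-color array set a sample against the 0 min wild-type culture of the same replicate letter, giving 22 arrays in 11 groups of 2, and 1 further array set wild-type isolate B against wild-type isolate A. Isolate A samples were in Cy3 and isolate B samples in Cy5, so dye, reference culture and isolate cannot be told apart. Values are log2 ratios of sample to reference. A mutant-effect ratio is the mutant minus the wild type of the same time and replicate letter, and a positive value means higher in the mutant. Median signals were 572 to 977 in Cy3 and 557 to 861 in Cy5, and 95.5% to 98.8% of probes per array were well above background. The labels of 3 double mutant arrays of isolate B conflict: source names give the dyes of the 0 min array the other way round and exchange the 30 and 60 min arrays, and the titles were followed. As titled, isolates A and B of the double mutant correlated over the 6201 probes, which are not independent of each other, with r = 0.44 at 0 min, 0.959 at 30 min and 0.869 at 60 min. With the 0 min array turned r was -0.44, and with the later arrays exchanged isolate A at 30 and 60 min gave 0.445 and 0.526. Calls and counts that change under the source names are given with the results below. Tests are limma fits over all 6201 probes, with Benjamini-Hochberg adjustment over all of them. The 51 probes from YDR211W to YDR261C were left out of every test, and none of them is a member. By the study's methods this region was aneuploid in isolate A of Tup1K270R, judged from raised expression of its genes. Effects of the region on genes outside it were not tested.

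The members are dimmer than the rest of the array. Of the 254 members, 209 (82.3%) were well above background in both channels of every array, compared with 94.4% of all probes tested. YFR057W, the outermost gene of the right arm of chromosome VI, was not well above background in both channels of any array. Where both channels lie at the intensity floor, the ratio is that of the floors and carries no information on the gene: YFR057W and YGL262W shared the same value in isolate A of the double mutant at 0 min, -1.42. Medians by rank below therefore use only the 209 brighter members, and other sets are said to hold dim ones.

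The targeted genes were read first. Mutant-effect ratios of the TUP1 probe in Tup1K270R cells at 0 min were 1.20 in isolate A and 0.65 in isolate B, and those of the CYC8 probe in Cyc8-4KtoR cells were 0.91 and 0.94. In the double mutant TUP1 stood at 0.01 and 0.12 and CYC8 at 0.33 and 1.44. The CYC8 probe also lay at -1.17 in isolate A and 1.33 in isolate B of Tup1K270R at 0 min, in which CYC8 is wild type. This gap held at 30 min and at 60 min (-1.28 and 1.43). Likewise, the TUP1 probe lay at -0.09 in isolate A and 1.05 in isolate B of Cyc8-4KtoR at 0 min, in which TUP1 is wild type. It stood at 0.07 and 0.97 there at 30 min, and isolate B was also the higher at 60 min. Whether these differences between isolates bear on the members was not tested. The probes read transcripts of both alleles, so they check no point mutation.

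Sorbitol changed the transcripts of many members in wild-type cells. At 30 min, 121 of the 254 members (47.6%) passed the test, 59 of them higher and 62 lower than at 0 min, against 65.7% of all probes tested. At 60 min 103 members passed (40.6%), 42 higher and 61 lower, against 45.1% of all probes. The share differed with position at 30 min: 30.7% of the 114 members of rank 1 to 5 passed and 61.4% of the 140 members of rank 6 to 10. At 60 min the shares were 34.2% and 45.7%. Both sets hold dim members. Among the brighter members the shares were 37.1% and 69.2% at 30 min and 41.6% and 49.2% at 60 min. The software's own log ratios gave fewer calls, 68 members at 30 min (37.4% of all probes passed) and 35 at 60 min (12.5% of all probes).

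The members with the highest ratios in sorbitol were STL1 and YML131W, at both times. STL1, the plasma membrane glycerol/proton symporter, stood at 5.81 in isolate A and 5.64 in isolate B at 30 min and at 5.29 and 5.70 at 60 min. This is a 52.9-fold rise at 30 min (log2 5.72 ± 0.28, SE; adjusted p = 8.2e-10) and a 45.0-fold rise at 60 min. The STL1 probe was well above background in both channels of 18 of the 23 arrays. YML131W, which encodes a putative oxidoreductase, rose equally in both isolates, with 5.16 and 5.25 at 30 min and 5.17 and 5.34 at 60 min. Both genes thus stayed up over the hour.

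Other members rose and came back. BDH2 and BDH1 are neighbours on the left arm of chromosome I, and BDH1 is the butanediol dehydrogenase. BDH2 lay at 4.77 in each isolate at 30 min (27.3-fold, adjusted p = 7.0e-12) but at 1.42 and 0.96 at 60 min. BDH1 lay at 2.08 and 2.31 at 30 min and at 0.69 and 0.60 at 60 min. JEN1, the lactate and pyruvate permease, had 2.21 and 2.30 at 30 min and 0.89 and 0.43 at 60 min. For each of these genes the isolates lie closer to each other than the 2 times do.

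CHA1, the serine and threonine deaminase, followed the opposite course. Its ratios were 1.64 and 2.19 at 30 min and 4.21 and 4.43 at 60 min, a 19.9-fold rise at the later time (adjusted p = 3.8e-09). MSC1 was high throughout (4.18 and 4.25 at 30 min, 3.59 and 3.52 at 60 min), and so was HXK1, hexokinase isoenzyme 1 (2.49 and 2.65, then 2.25 and 1.71).

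All 3 members of the Hsp31-like chaperone list rose at both times, when 65.7% and 45.1% of all probes passed. HSP32 had 1.63 and 1.95 at 30 min and 1.79 and 1.65 at 60 min, SNO4 had 1.43 and 1.82 and then 1.60 and 1.64, and HSP33 stayed lower, at 0.51 and 0.76 and then 0.46 and 0.66. These genes are near-identical copies on different chromosome ends, and RNA of one copy binding the probe of another cannot be told apart here. The same holds for the enolase-related genes ERR1 and ERR2. ERR1 did not pass at 30 min (0.73 and 0.39, adjusted p = 0.20) and rose at 60 min (1.55 and 1.28, adjusted p = 0.0061).

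Genes of arsenic resistance sit side by side on the right arm of chromosome XVI. ARR1, the transcription factor of the group, rose at 30 min (1.28 and 1.46, adjusted p = 1.1e-07) and was near the 0 min level at 60 min (0.09 and 0.20). ARR3, the arsenite exporter, had 1.22 and 0.90 at 30 min, which did not pass, and 1.71 and 0.77 at 60 min, which did (adjusted p = 0.047). ARR2, the arsenate reductase, passed at neither time.

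Transporters of metals and of S-adenosylmethionine were among the members that fell. ZRT1, the high-affinity zinc transporter, fell at 30 min only (-1.32 and -1.84, adjusted p = 7.6e-05) and stood at 0.07 and -0.25 at 60 min. FET4, the low-affinity iron transporter, lay at -0.77 and -0.96 at 30 min and at -1.47 and -2.12 at 60 min. SAM3, the S-adenosylmethionine permease, was also lower at the later time, with -1.14 and -1.29 and then -1.98 and -2.33.

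Some genes that fell did so late. VEL1 was at -0.86 and -1.53 at 30 min (adjusted p = 0.21) and at -2.57 and -3.89 at 60 min (adjusted p = 0.0051). YOR387C was at -0.84 and -1.37 at 30 min and at -1.77 and -3.45 at 60 min (adjusted p = 0.033), and ADH4, an alcohol dehydrogenase, was at -1.64 and -1.74 at 60 min (adjusted p = 0.023). These 3 genes were also the highest members on the array of wild-type isolates, where B over A was 1.97 for VEL1, 2.35 for YOR387C and 1.13 for ADH4. The 2 cultures behind that array were both at 0 min.

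DLD3, a D-lactate dehydrogenase, fell and returned, with -1.88 and -1.90 at 30 min and 0.33 and -0.26 at 60 min. YDL241W and its neighbour LRG1, a GTPase-activating protein of Rho1, both fell at 30 min. YDL241W had -2.09 and -1.94 and was still low at 60 min (-1.72 and -1.63), whereas LRG1 had -1.58 and -1.20 and then -0.55 and -0.42. The neighbours MIX23 (-1.64 and -1.50) and SRO77 (-1.24 and -1.23) on the left arm of chromosome II were likewise lowest at 30 min. YJR154W (-1.43 and -1.93, then -1.58 and -2.35) and YMR321C (-1.55 and -0.98, then -1.19 and -0.77) were low at both times.

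Aryl alcohol dehydrogenase genes, a family of oxidoreductases with copies near several ends, did not move together. AAD10 fell at 30 min (-1.25 and -1.14) and further at 60 min (-2.21 in each isolate, adjusted p = 7.3e-10). AAD3 fell at 30 min only (-0.81 and -0.58), and AAD4 was at -0.07 and -0.15 at 30 min and 0.01 and 0.00 at 60 min. YEL073C, by comparison, fell at both times, to -1.86 and -1.76 at 60 min.

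**Figure D1:**
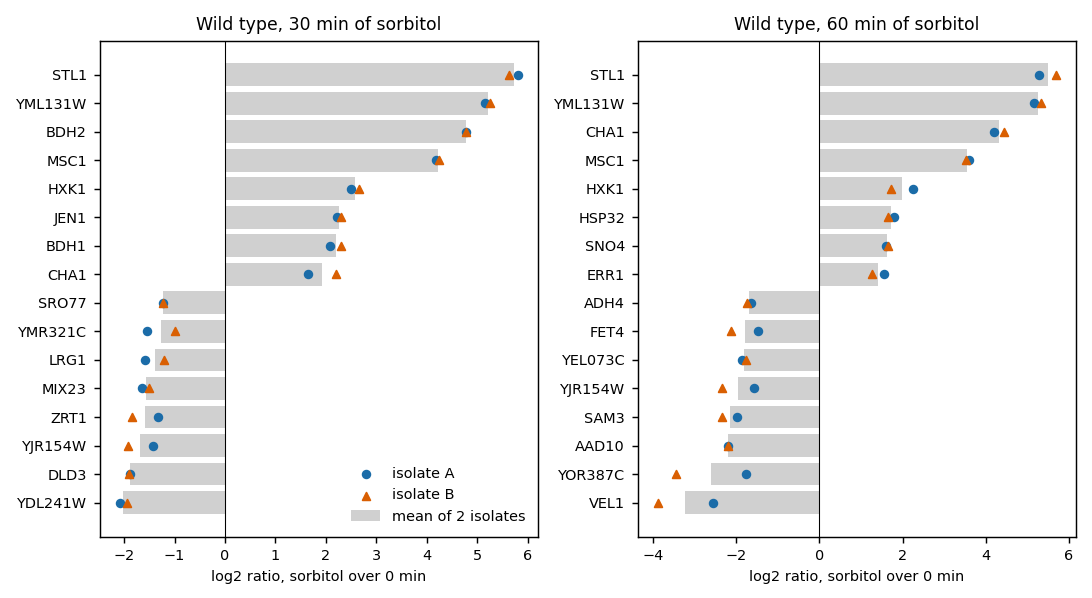
Log2 ratio of wild-type cells in sorbitol over 0 min for the members with the largest called changes, up to 8 in each direction, at 30 min (left) and 60 min (right). Grey bars are means of 2 isolates, circles isolate A and triangles isolate B; STL1 and YML131W stand above 5 at both times, and VEL1 and YOR387C show the widest gap between isolates at 60 min.

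The vacuolar sorting receptor genes VTH1 and VTH2, which are near-identical, fell together at 30 min, VTH1 to -1.14 and -1.23 and VTH2 to -1.27 and -1.19. The pyridoxine genes SNZ2 (-0.59 and -0.47) and SNZ3 (-0.46 and -0.49) fell less. Of 19 membrane transporter genes, 3 rose and 5 fell at 30 min (42.1% called, against 65.7% of all probes), with a median of -0.21. Of 17 carbon and polyol genes 4 rose and 2 fell at 30 min (35.3% called), and 7 rose and 1 fell at 60 min (47.1%, against 45.1% of all probes). Of 7 vitamin B1 and B6 genes, 2 rose and 4 fell at 30 min, and 1 rose at 60 min (85.7% and 14.3% called). Several of these are near-identical copies.

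SIR1 and RPD3 are themselves members by position. SIR1, which establishes silencing at the mating cassettes, stood at -0.12 and -0.28 at 30 min and at -0.37 and -0.56 at 60 min, and it passed the test at 60 min (adjusted p = 0.0078). RPD3, a histone deacetylase, passed at neither time. Of 16 other silencing and corepressor genes tested, none of which is a member, 3 rose and 8 fell at 30 min (68.8% called, against 65.7% of all probes) and 1 rose and 5 fell at 60 min (37.5%, against 45.1%). RAP1, which binds telomeric repeats, fell at both times (log2 -0.96 at 30 min and -0.94 at 60 min). All 3 silent mating cassette members passed at 30 min, HMLALPHA2 with 0.53 and 0.91, HMLALPHA1 with -0.37 and -0.50 and HMRA1 with -0.61 and -0.25. All 3 probes were well above background on every array. The cassettes share sequence with the mating-type locus, and whether these probes read RNA of the cassettes or of that locus was not tested.

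Each mutant changed many of its members between 0 min and sorbitol as well. At 30 min the test called 93 members in Tup1K270R (36.6%, against 54.4% of all probes), 96 in Cyc8-4KtoR (37.8%, against 55.7%) and 96 in the double mutant (37.8%, against 56.9%). At 60 min the counts were 50 (19.7%, against 26.2%), 48 (18.9%, against 22.2%) and 44 (17.3%, against 22.1%). With the isolate B arrays of 30 and 60 min exchanged, the double mutant's counts were 24 at each time. No member passed the test that its response differed between a mutant and wild type, at either time and in any of the 3 mutants. In those 6 comparisons 1 to 13 members had an unadjusted p under 0.05, and none passed with the replicate letter as a block.

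In unstressed cells the mutants differed from wild type at few members. No member passed in Tup1K270R (0% of all probes; 24 members had an unadjusted p under 0.05), 5 passed in Cyc8-4KtoR (0.161% of all probes) and 6 in the double mutant (1.35% of all probes). With the replicate letter as a block, which removes the part that all arrays of an isolate letter share, the counts were 2, 14 and 49 members (0.161%, 1.13% and 9.97% of all probes). With the double mutant's isolate B array turned as its source name has it, no member passed in that strain at 0 min, with or without the block. With the software's log ratios, or with normexp background correction, no member passed in any mutant at 0, 30 or 60 min.

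All 5 members called in Cyc8-4KtoR cells at 0 min were lower than in wild type, and 4 of them lie at 2 chromosome ends. ADH7, an NADPH-dependent alcohol dehydrogenase at rank 3 of the right arm of chromosome III, had mutant-effect ratios of -1.11 in isolate A and -1.03 in isolate B (adjusted p = 0.0017). AAD3, the outermost gene of that arm, had -1.002 and -0.81 (adjusted p = 0.0034). RDS1, a zinc cluster regulator that lies between them, had -0.53 and -0.48 and did not pass (adjusted p = 0.051; 0.018 with the block).

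On the left arm of chromosome XV the 2 outermost genes gave the same picture. YOL166C had -0.71 and -0.82 (adjusted p = 0.017) and AAD15 had -0.75 and -0.88 (adjusted p = 0.0022). AAD3 and AAD15 belong to the same family, and RNA of one binding the probe of the other cannot be told apart here. The fifth gene, SRY1, a 3-hydroxyaspartate dehydratase on the left arm of chromosome XI, had -0.41 and -0.46 (adjusted p = 0.024). All isolates of Cyc8-4KtoR lay below wild type for these 5 genes.

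The 2 chromosome ends stayed low in sorbitol. AAD15 was the one member called in Cyc8-4KtoR at 30 min, with -0.91 and -1.03 (adjusted p = 0.033; 0.0161% of all probes passed), and the one called at 60 min, with -0.99 and -0.85 (adjusted p = 0.030; 0.0484% of all probes). AAD3 had -0.81 and -1.12 at 30 min and -0.85 and -0.79 at 60 min, and ADH7 had -0.46 and -1.09 and then -0.95 and -0.98. YOL166C had -0.93 and -0.58 and then -0.68 and -0.44. These 3 passed at neither time in the fit without the block, and with it (0.0323% of all probes at 30 min and 0.0645% at 60 min) AAD3 passed at 30 min (adjusted p = 0.026) and ADH7 at 60 min (adjusted p = 0.048). SRY1 did not stay low, with -0.12 and 0.07 at 30 min.

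The same genes were near the wild-type level in the cells that carry both mutations. AAD15 had -0.28 and -0.08 in the double mutant at 0 min, AAD3 had -0.19 and -0.25 and ADH7 had -0.19 and -0.26. YOL166C had 0.16 and 0.17. SRY1 was the exception, at -0.50 and -0.49, and it passed there too (adjusted p = 0.0043), but not with the array turned (mean -0.0024). The difference of the double mutant from Cyc8-4KtoR at 0 min was 0.64 for AAD15, 0.69 for AAD3, 0.85 for ADH7 and 0.93 for YOL166C, and none of these differences passed the test (lowest adjusted p = 0.40). No member passed between these 2 strains at any time (0% of all probes at each time; 7 to 10 members had an unadjusted p under 0.05).

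**Figure D2:**
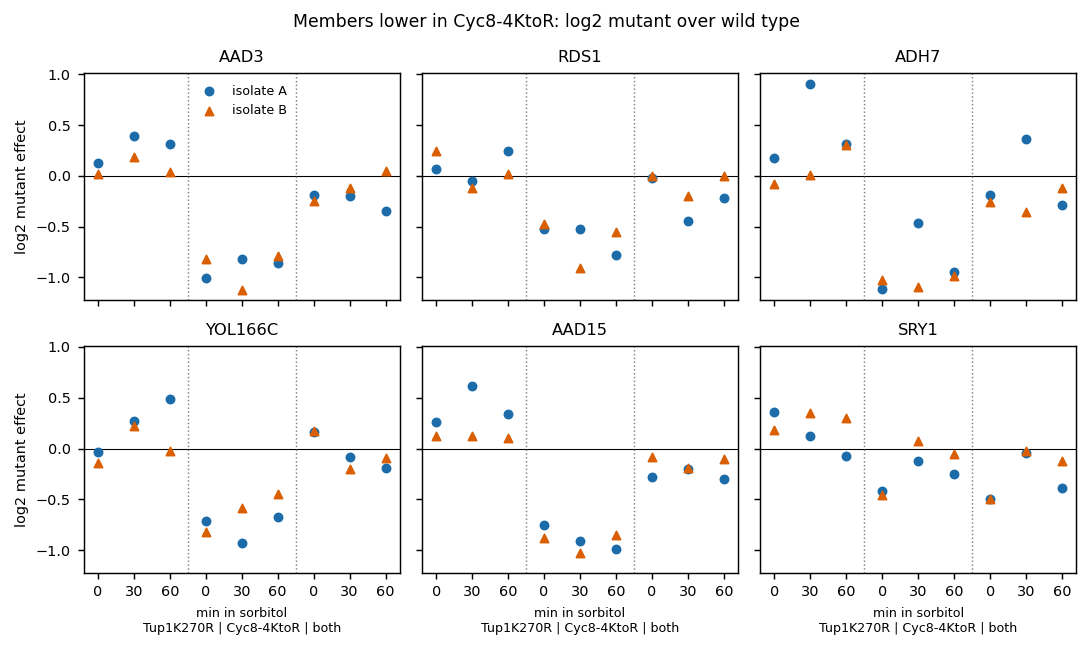
Log2 mutant-effect ratio of 6 members at 0, 30 and 60 min in Tup1K270R, Cyc8-4KtoR and the double mutant, with circles for isolate A and triangles for isolate B. In Cyc8-4KtoR both isolates of AAD3, ADH7, YOL166C and AAD15 lie below 0 at all times, between -0.44 and -1.12, and RDS1 lies between -0.48 and -0.90.

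In the double mutant at 0 min, 2 members were higher than in wild type and 4 lower. YML131W, the oxidoreductase gene that sorbitol raised in wild-type cells, had 1.30 in isolate A and 0.84 in isolate B before stress (2.10-fold, adjusted p = 0.0083). In Cyc8-4KtoR it had 1.32 and 0.47 at 0 min (adjusted p = 0.070; 0.028 with the block). In sorbitol its ratios in the double mutant were 0.19 and 0.28 at 30 min and 0.01 and 0.10 at 60 min, so the mutant and wild-type levels lay close together once the gene was raised.

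NRE1, which encodes an oxidoreductase at rank 10 of the right arm of chromosome IX, had 0.68 and 0.56 (adjusted p = 0.020). It remained above wild type at later times, with 0.48 and 0.43 at 30 min and 0.68 and 0.30 at 60 min, which did not pass. On the same arm, YIR042C at rank 3 had -1.67 and -0.93 at 0 min (adjusted p = 0.026), -1.10 and -1.26 at 30 min and -1.72 and -1.36 at 60 min. At 30 min the YIR042C probe was not well above background in either double mutant sample, so no fold is given there.

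YPS6, a yapsin-type aspartic protease gene of the same arm, had -0.61 and -0.76 at 0 min in the double mutant (adjusted p = 0.026). YLR463C had -0.51 and -0.52 (adjusted p = 0.025), and it was low in every array of both strains with mutant Cyc8, between -0.15 and -0.72. All 6 calls of this strain at 0 min rest on the title of the isolate B array. With that array turned the means were 0.23 for YML131W, 0.058 for NRE1, -0.37 for YIR042C, 0.076 for YPS6, 0.0085 for YLR463C and -0.0024 for SRY1, and none passed.

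No member passed in the double mutant at 30 min (0.0161% of all probes) or 60 min (0.0645%), with 34 and 31 members at an unadjusted p under 0.05. With the block, 1 member passed at each time, AAD4 at 30 min (-0.52 and -0.47; 0.226% of all probes) and YLR463C at 60 min (-0.58 and -0.69; 0.742% of all probes). With the 30 and 60 min arrays of isolate B exchanged, neither passed.

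Comparing the mutants with each other showed where Tup1K270R departed from the strains with mutant Cyc8. Between Tup1K270R and Cyc8-4KtoR 4, 7 and 5 members passed at 0, 30 and 60 min (0.177%, 0.306% and 0.129% of all probes). Between the double mutant and Tup1K270R 9, 10 and 4 members passed (1.37%, 0.726% and 0.339% of all probes). With the block the counts were 17, 30 and 11 (1.55%, 2.1% and 0.839% of all probes) and then 37, 51 and 29 (6.02%, 5.13% and 3.98%). Under the source names of isolate B the double mutant and Tup1K270R differed at 0, 3 and 0 members. These contrasts were added after the data had been seen. ADH7, AAD3 and AAD15 were higher in Tup1K270R than in Cyc8-4KtoR at all 3 times, with AAD15 differing by 1.01, 1.34 and 1.14. YIR042C and YLR463C were lower in the double mutant than in Tup1K270R at all 3 times, as was VTH2, with the titles followed, and YIR042C differed by -1.92, -2.16 and -2.15.

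Because few members reached the test's threshold, the larger differences were also counted by the cutoff of the study's methods, a mean of at least 0.65 on the log2 scale (1.57-fold). Here both isolates also had to lie on the same side of 0. At 0 min 3 members were above and 1 below this cutoff in Tup1K270R (0.387% of all probes passed it), 3 above and 8 below in Cyc8-4KtoR (0.984%) and 6 above and 14 below in the double mutant (2.74%). At 30 min the counts were 16 above and 0 below in Tup1K270R (0.758%), 9 and 9 in Cyc8-4KtoR (1.21%) and 13 and 5 in the double mutant (1.61%). At 60 min they were 5 and 0 (0.274%), 1 and 6 (0.984%) and 4 and 3 (1.71%). As shares of the 254 members these are 1.57%, 4.33% and 7.87% at 0 min, 6.30%, 7.09% and 7.09% at 30 min and 1.97%, 2.76% and 2.76% at 60 min. Among the 209 brighter members the shares at 0 min were 1.91%, 4.78% and 4.78%, and the double mutant had 6 above and 4 below, so that 10 of its 14 members below the cutoff were dim. With its isolate B array turned, 3 of the 254 members were above and 3 below. With the later arrays exchanged the counts were 16 above and 18 below at 30 min and 9 and 11 at 60 min. Members also spread more widely than all probes tested on every array of the fit, for example with a standard deviation of 0.34 against 0.20 in Tup1K270R isolate A at 0 min.

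These differences were larger nearer the chromosome end and ran in opposite directions in Tup1K270R and in the strains with mutant Cyc8. Over the 89 brighter members of rank 1 to 5, the median mutant-effect ratio in Tup1K270R was 0.18 at 0 min, 0.32 at 30 min and 0.19 at 60 min. In Cyc8-4KtoR it was -0.15, -0.18 and -0.11, and in the double mutant it was -0.12, -0.20 and -0.09. Under the source names of isolate B the double mutant medians were 0.024, -0.21 and -0.074. Over the 120 brighter members of rank 6 to 10 the medians lay between -0.03 and 0.06 in all 9 comparisons. Over the 298 brighter genes of rank 11 to 20 on the same arms they lay between -0.04 and 0.02. The median of all probes was between -0.01 and 0.01 throughout. The 66 genes of the families left out, also of rank 1 to 10, went in the same directions. Their medians at 0, 30 and 60 min were 0.21, 0.15 and 0.145 in Tup1K270R. They were -0.27, -0.19 and -0.10 in Cyc8-4KtoR and, with the titles followed, -0.38, -0.33 and -0.19 in the double mutant. The shift is thus not particular to the members.

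Isolate A carried more of this than isolate B, and isolate A of Tup1K270R is the isolate with the aneuploid region. In Tup1K270R the medians for rank 1 to 5 were 0.28 in isolate A and 0.02 in isolate B at 0 min, 0.36 and 0.22 at 30 min, and 0.31 and 0.04 at 60 min. In Cyc8-4KtoR at 30 min they were -0.26 and -0.03, and in the double mutant -0.33 and -0.13. At 30 min in Tup1K270R, 64 of the 89 members were above 0 in both isolates and 4 below 0 in both. Of all 6201 probes, 1263 were above in both and 1542 below in both. In the double mutant at 30 min, 14 of the 89 were above in both and 49 below in both, against 1983 and 1941 of all probes. With normexp background correction the medians for rank 1 to 5 kept their sign but shrank, to 0.22 in Tup1K270R, -0.05 in Cyc8-4KtoR and -0.13 in the double mutant at 30 min.

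**Figure D3:**
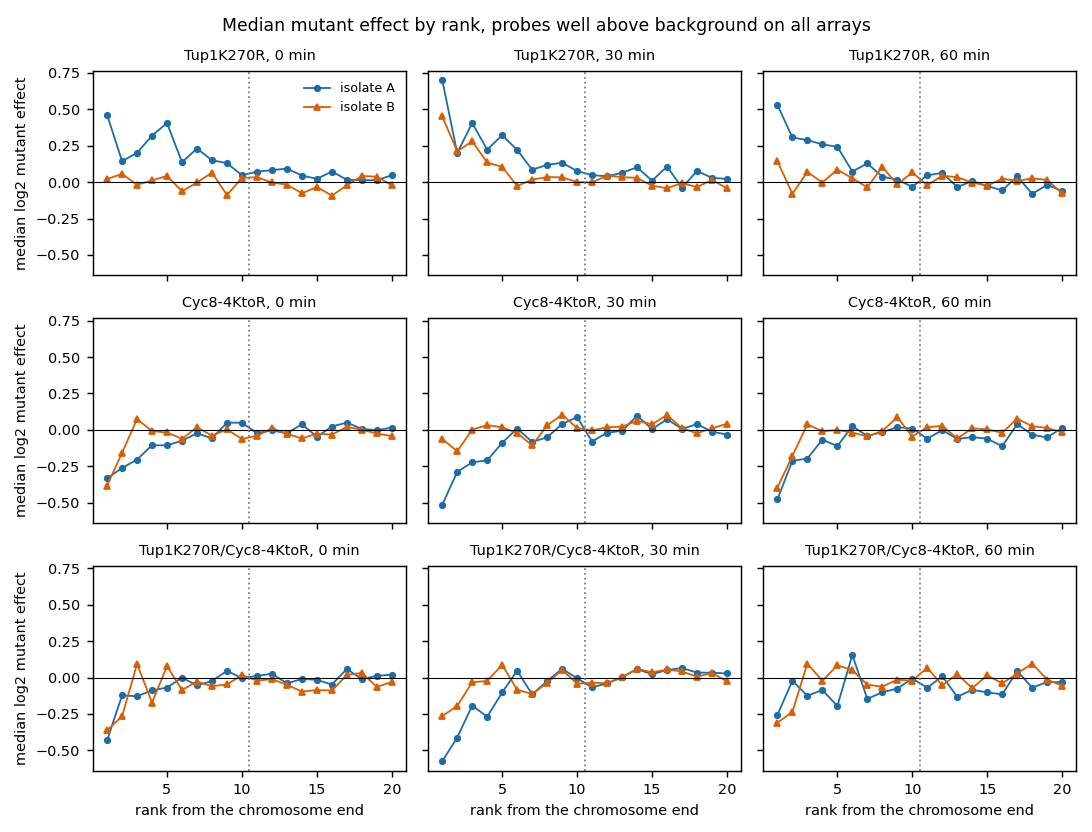
Median log2 mutant-effect ratio at each rank from the chromosome end, with rank 1 outermost, in isolate A (circles) and isolate B (triangles), over probes that no array had near background. Ranks 1 to 10, left of the dotted line, hold the members and ranks 11 to 20 all genes of those ranks; at rank 1 (16 members) Tup1K270R reaches 0.70 and 0.45 at 30 min, and the double mutant lies at -0.57 and -0.26.

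At rank 1 and 2, 19 members are listed in RefSeq under the systematic name alone, 17 of them among the brighter members, and their median in Tup1K270R at 30 min was 1.00 in isolate A and 0.43 in isolate B. A set of 7 of these, picked out after their values were seen, gave almost the same values: YBL113C, YEL077C, YHR219W, YJL225C, YLL067C, YLL066C and YPR204W lay between 1.00 and 1.13 in isolate A and between 0.43 and 0.55 in isolate B. At 60 min the same genes stood between 0.65 and 0.86 in isolate A but between -0.14 and 0.15 in isolate B. Chromosome ends share repeated sequence, so these probes may read the same RNA and are not separate measurements. Families were left out by name, so genes with such shared sequence remain members. Those among the brighter members count as separate genes in the medians and counts by rank.

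The same 7 genes were on the other side of wild type where Cyc8 was mutant. In the double mutant they lay between -0.31 and -0.54 in isolate A and between -0.56 and -0.83 in isolate B at 0 min, and between -0.44 and -0.80 in isolate A and between -0.33 and -0.44 in isolate B at 30 min. With the isolate B array turned, their means at 0 min were 0.058 to 0.18. In Cyc8-4KtoR at 0 min isolate A gave 0.01 to -0.17 and isolate B -0.49 to -0.89. With the block, 6 of the 7 passed in the double mutant at 0 min, the exception being YPR204W, and none passed in the fit without it or with that array turned.

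Against that trend, genes of 2 chromosome ends were higher in the strains with mutant Cyc8. The right arm of chromosome XV carries the formate dehydrogenase gene FDH1 and the left arm of chromosome XVI its copy FDH2. RNA of one copy binding the probe of another cannot be told apart, so the 2 ends may not be separate measurements. Over the members of the left arm of XVI the median was 0.42, 0.65 and 0.39 in Cyc8-4KtoR at 0, 30 and 60 min and 0.49, 0.76 and 0.43 in the double mutant, and over those of the right arm of XV it was 0.27, 0.47 and 0.13 and then 0.36, 0.62 and 0.29. With the isolate B array turned, the double mutant medians at 0 min were 0.063 on the left arm of XVI and 0.15 on the right arm of XV. Of the 8 members on each of these arms, 7 on XVI and 8 on XV are among the brighter ones. In Tup1K270R the medians of these arms lay between -0.03 and 0.16, but its isolates differed. Its medians were 0.21 to 0.46 in isolate A and -0.33 to -0.02 in isolate B. In Cyc8-4KtoR the arm medians were 0.34 to 0.83 in isolate A and 0.01 to 0.47 in isolate B. In the double mutant, as titled, they were 0.29 to 0.62 and 0.08 to 0.72. No other arm had a median above 0.2 in either strain with mutant Cyc8 at any time.

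YPL277C had 0.80 and 0.45 in the double mutant at 0 min and 1.13 and 0.56 at 30 min, its neighbour YPL278C had 1.02 and 0.54 and then 1.04 and 0.62, and YOR389W on the other arm had 0.98 and 0.62 and then 0.83 and 0.48. In Cyc8-4KtoR isolate A was high (0.91, 0.94 and 1.06 at 0 min) and isolate B near 0 (0.14, 0.04 and 0.04). On the array of wild-type isolates the 3 probes read 0.58, 0.52 and 0.54, B over A. Whether these 3 probes read the same RNA was not tested. None passed without the block. With it, all 3 passed in the double mutant at 0 min (adjusted p = 0.022, 0.0052 and 0.0036). With the isolate B array turned, none passed and the means were 0.18, 0.24 and 0.18.

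In the double mutant at 60 min FDH1 had 0.68 and 1.16 and FDH2 had 0.69 and 1.04, and at 30 min they had 0.49 and 0.69 and 0.34 and 0.83. With the isolate B arrays of these times exchanged, the means were 0.84 at 30 min and 0.67 at 60 min for FDH1 and 0.72 and 0.73 for FDH2. In Cyc8-4KtoR at 30 min FDH1 had 1.11 and 0.69 and FDH2 had 0.94 and 0.66. In Tup1K270R they lay between -0.49 and 0.31. HSP32 had 0.82 and 0.80 in the double mutant at 0 min and 1.22 and 0.82 at 30 min, and SNO4, its copy on the right arm of chromosome XIII, had 0.81 and 0.91 and then 1.20 and 0.99. Both passed only with the block, and at 0 min only (adjusted p = 0.020 and 0.032), and not with the isolate B array turned.

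**Figure D4:**
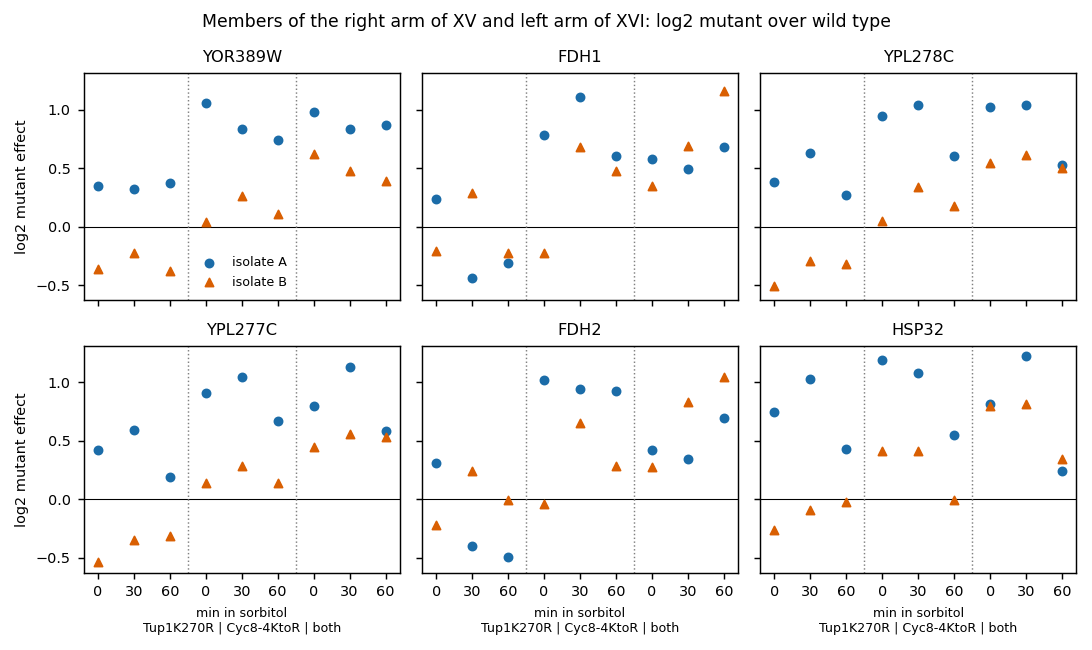
Log2 mutant-effect ratio of 6 members of the right arm of chromosome XV (YOR389W, FDH1) and the left arm of XVI (YPL278C, YPL277C, FDH2, HSP32) by strain and time, with circles for isolate A and triangles for isolate B. In the double mutant all values are above 0, and in Cyc8-4KtoR isolate A lies above isolate B throughout.

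Some members differed widely between the isolates of the strains with mutant Cyc8, with the gap present at all 3 times. YER188W, at rank 3 of the right arm of chromosome V, had 1.27, 1.62 and 1.28 in Tup1K270R isolate A at 0, 30 and 60 min and 0.88, 1.08 and 1.25 in isolate B. In Cyc8-4KtoR isolate A had -1.13, -1.14 and -1.10 while isolate B had 0.84, 0.91 and 0.87. The double mutant matched this, with -0.96, -0.94 and -1.11 in isolate A and 0.75, 0.88 and 0.89 in isolate B. On the array of wild-type isolates YER188W read -0.86, B over A, the lowest value of any member.

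The neighbouring gene YER187W was split in the same way, with -0.66, -1.21 and -0.96 in isolate A of Cyc8-4KtoR and 0.51, 0.70 and 0.65 in isolate B. YIR043C, at rank 2 of the right arm of chromosome IX, was above wild type in both isolates of Tup1K270R at all times, from 0.75 to 1.41. In Cyc8-4KtoR it had -2.03, -1.93 and -1.59 in isolate A but -0.19, -0.35 and -0.25 in isolate B. In the double mutant it had -1.93, -1.83 and -1.42 in isolate A and -0.30, -0.32 and -0.24 in isolate B. YNR077C, the outermost gene of the right arm of chromosome XIV, lay below wild type in isolate A of these 2 strains (-0.41 to -0.96) and above it in isolate B (0.12 to 0.66).

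ARR2 gave the reverse, with the low values in isolate B. It had -0.86, -1.56 and -0.80 in isolate B of Cyc8-4KtoR and -0.99, -1.29 and -0.87 in isolate B of the double mutant, against 0.03, 0.02 and 0.14 and 0.19, 0.51 and 0.40 in isolate A. ARR3 at 60 min was low in both isolates, with -1.15 and -1.08 in Cyc8-4KtoR and -1.02 and -1.79 in the double mutant, and did not pass (adjusted p = 0.98 and 0.55). None of YER188W, YER187W, YIR043C, YNR077C and ARR2 passed the test in any mutant. Each isolate was set against the wild-type culture of its own letter, so a level particular to that culture enters all values of the letter, and its part in these differences was not tested.

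**Figure D5:**
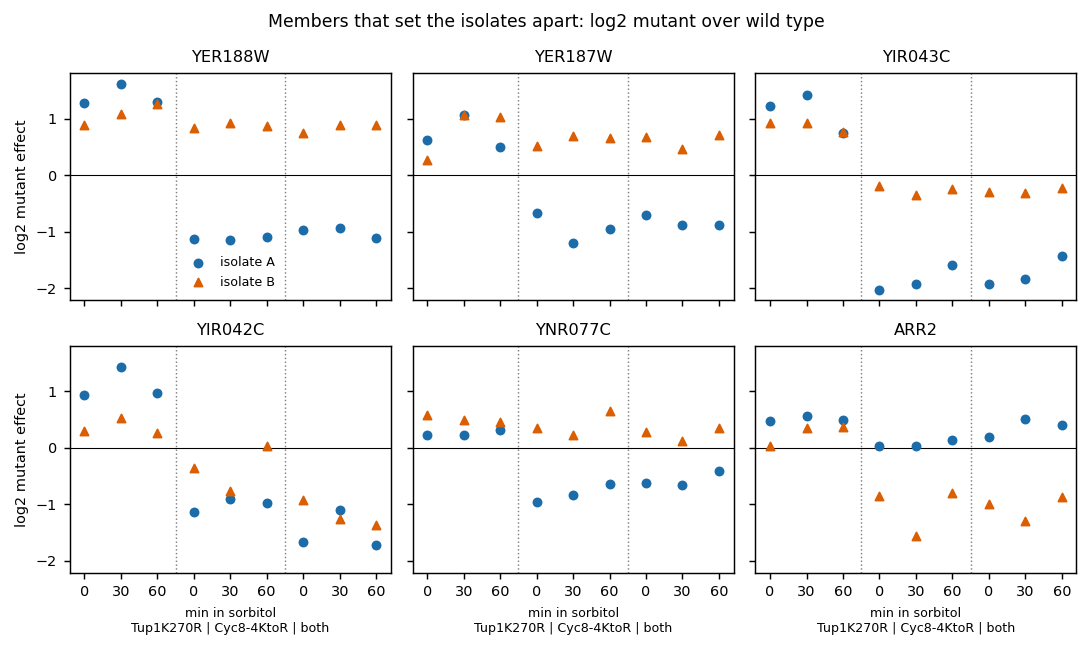
Log2 mutant-effect ratio of 6 members by strain and time, with circles for isolate A and triangles for isolate B. YER188W, YER187W and YNR077C lie on opposite sides of 0 in the 2 isolates of Cyc8-4KtoR and of the double mutant at every time, whereas YIR042C is below 0 in both isolates of the double mutant.

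Among the genes that the cutoff named in single comparisons, JEN1 was higher in Cyc8-4KtoR at 30 min (0.89 and 0.96), which did not pass, at a time when it was also raised in wild type. YPL276W had 0.80 and 0.83 in the double mutant at 30 min, from a probe well above background on only 6 of 23 arrays. VEL1 and YOR387C differed in direction between the isolates of Tup1K270R at 0 min, with 1.59 and -1.75 for VEL1 and 1.59 and -1.71 for YOR387C. The same probes gave 1.73 and -0.73 and 1.71 and -0.77 in the double mutant. On the array of wild-type isolates these probes stood far apart (above), and both cultures on that array are the references of the letters.

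No vitamin B1 or B6 gene passed the test in Tup1K270R. All 7, the thiamine genes THI11, THI12 and THI13 and the pyridoxine genes SNZ2, SNZ3, SNO2 and SNO3, lay above wild type in both isolates at 0, 30 and 60 min, with medians of 0.38, 0.42 and 0.36. The THI genes, the SNZ genes and the SNO genes are each near-identical copies, so these 7 probes may read the same RNA and are not separate measurements. In the double mutant their medians were -0.10, -0.20 and -0.17. With the block, THI11 passed in Tup1K270R at 0 min (0.37 and 0.55). SAM3, the other gene that passed with the block, had -0.24 and -1.24.

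The remaining lists showed few differences between mutants and wild type. Of 19 transporter genes and 5 sulfur genes, none passed in any mutant, and the silent mating cassette genes lay between -0.16 and 0.27 in the 9 comparisons. The 16 silencing and corepressor genes, TUP1 and CYC8 among them, had none called in any mutant, and medians between -0.05 and 0.08. SIR4 is not among the 16, since it lies in the region left out of the tests. In Tup1K270R it had -0.82, -0.94 and -0.71 in isolate A at 0, 30 and 60 min. In isolate B it had 0.002, -0.15 and 0.05. In the strains with mutant Cyc8 it lay between -0.11 and 0.09. Whether its level bears on the members was not tested. SIR1 stood between -0.21 and 0.34 over all mutant arrays and RPD3 between -0.16 and 0.18.

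The array of wild-type isolates B over A gives the difference between 2 cultures of the same genotype. On it, 9 of the 254 members (3.54%) were at least 0.65 from 0, against 1.03% of all probes. They were YOR387C, VEL1, ADH4, GIT1 and MAN2 above 0, and YER188W, REE1, YNR077C and IRC7 below it. The standard deviation over members was 0.32 on this array, against 0.22 over all probes tested.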

How the data were processed

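Two-color Agilent arrays (23) were read by the authors with Feature Extraction 10.5.1.1, which deposited a spot intensity in Cy3 and Cy5 and a log10 ratio per spot; a deposited table of the series holds the log2 values. The software's log ratios carried a spatial trend on some arrays, so the ratios used here were made from the background-subtracted intensity, with dim spots raised to a floor, loess within each array and the 2 spots of each probe averaged (R 4.3.3, limma 3.58.1). All ratios were turned to sample over reference by the dyes in the titles, and titles were followed where source names of double mutant isolate B conflict with them. Groups were compared with lmFit and eBayes over 6201 probes and 22 arrays, with Benjamini-Hochberg adjustment, after a test on simulated data. The simulated arrays had independent noise, so that test did not cover samples that deviate together. Same-lettered samples deviated together in all 55 pairs of groups (r 0.263 to 0.733), and they share a reference culture and dye, so the letters pair the samples and a fit with the letter as a block was run. Members passing the test, up to 8 in each direction, are named, then members past the cutoff in both isolates where fewer than 5 pass, genes of the lists and outermost genes; others are said to be chosen after their values were seen. The members and lists were chosen with earlier results of these data known. Gene names are from RefSeq, whose coordinates were not used since the array design rests on an older assembly. P-values rest on the spread between the 2 isolates of a group, pooled over the 11 groups. Where the 0 min wild type is the reference, its own spread is left out. The main fit treats arrays of an isolate at different times as independent. The number of arrays limits the precision.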

Additional observations from a re-analysis of the deposited data

Results flagged for a closer look

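Differences between strains under the same contrast with wild type passed the limma test (Benjamini-Hochberg adjusted over all probes) for these members. They are listed because the strains' effects differed by a test of the difference itself. Groups of 2 samples allow no search for outlying samples.

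Tup1K270R minus Cyc8-4KtoR at 0 min was 1.11 for ADH7 (adjusted p = 0.014), 0.98 for AAD3, 0.71 for SRY1 and 1.01 for AAD15. At 30 min it was 1.24 for ADH7, 1.26 for AAD3, 0.85 for VTH1, 0.84 for VTH2, 0.84 for YLR463C, 1.34 for AAD15 (adjusted p = 0.00074) and 1.00 for YOL166C. At 60 min it was 1.27 for ADH7, 0.79 for RDS1, 1.00 for AAD3, 0.97 for DLD3 and 1.14 for AAD15 (adjusted p = 0.0026).

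The double mutant minus Tup1K270R at 0 min was -0.76 for VTH1, 0.80 for NRE1, -0.90 for YPS6, -1.92 for YIR042C, -0.81 for VTH2, -0.77 for SRY1 (adjusted p = 0.0038), -1.14 for MCH2, -0.85 for GEX2 and -0.78 for YLR463C. At 30 min it was -0.67 for AAD4 (adjusted p = 0.0028), -0.92 for VTH1, -2.16 for YIR042C, -1.30 for YIR044C, -0.96 for VTH2, -0.92 for GEX2, -0.53 for GTT2, -0.74 for AYT1, -0.99 for YLR463C and -0.44 for YLR465C. At 60 min it was -1.06 for DLD3 (adjusted p = 0.017), -2.15 for YIR042C, -0.89 for VTH2 and -0.84 for YLR463C. Under the source names of isolate B of the double mutant, which conflict with the titles, 0 members passed this comparison at 0 min, 3 at 30 min and 0 at 60 min.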

How the results depend on the processing

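The software's log ratios, and the series matrix values, each called 68 members in wild type at 30 min and 35 at 60 min, and 0 in Cyc8-4KtoR at 0, 30 and 60 min and in the double mutant at 0 min. Normexp correction called 0 in those 4 mutant comparisons. Leaving out each replicate in turn gave 60 to 64 members in wild type at 60 min, 0 to 6 in Cyc8-4KtoR at 0 min, 0 at 30 and at 60 min, and 0 to 1 in the double mutant at 0 min, where the lone sample was assumed to vary like the other groups. With the replicate block the counts were 2 in Tup1K270R, 14 in Cyc8-4KtoR and 49 in the double mutant at 0 min, 2 and 1 in Cyc8-4KtoR and the double mutant at 30 min, and 2 and 1 at 60 min. Slide as a random block gave 2 and 1 in these strains at 30 min. With the isolate B array of the double mutant at 0 min turned as its source name has it, 0 members passed, YPS6 stood at 0.076, YLR463C at 0.0085 and SRY1 at -0.0024. Members past the cutoff in at least 1 mutant numbered 29, 38 and 16 at 0, 30 and 60 min. Normexp gave 5, 19 and 2, both isolates past the cutoff 12, 16 and 9, and the software's log ratios 41 at 60 min. The causes were not tested. Of 45 named results past the threshold, 29 and 32 kept their call without replicate A and without replicate B, 32 with normexp, 30 with the log ratios, 44 with slide as a block and all 45 with the replicate block. With the 30 and 60 min arrays of isolate B exchanged, the double mutant's own responses were called at 24 members at each time, against 96 and 44 as titled.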
